A study of Mus musculus with 18 samples.

Results

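The genes described here encode the nuclear part of the mitochondrial respiratory chain and of ATP synthase. Members are the table's genes whose GENCODE M21 symbol begins with Nduf, Uqcr, Atp5, Cox4, Cox5, Cox6, Cox7 or Cox8, together with Sdha, Sdhb, Sdhc, Sdhd, Cyc1 and Cycs, with pseudogenes left out. The annotation holds 96 such genes, and 90 of the 11164 genes in the table were among them. Of the other 6, Cox4i2, Cox6b2, Cox7b2, Cox8b and Cox8c encode isoforms known from other tissues, and the last is a second gene ID named Atp5o. All 90 listed members passed the filter on low values (a group mean of at least 1 RPKM, read counts scaled by gene length and by the sequencing depth of the column, in at least 1 of 6 groups).

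The RNA came from mouse macrophages that had been grown out of bone marrow. The mice were wild-type (WT), BAFF KO or APRIL KO, the labels give the strain C57BL/6J and day 16 of gestation throughout, and BAFF and APRIL are related cytokines known for sustaining B cells and plasma cells. Cells of each genotype were left unstimulated (WT library 13, BAFF KO library 16 and APRIL KO library 19) or received 10 ng/ml lipopolysaccharide (LPS), a bacterial cell wall component, for 4 h (WT libraries 14 and 15, BAFF KO 17 and 18, APRIL KO 20 and 21). Nothing in the labels ties the libraries of a group to different mice or cultures; the p-values therefore weigh differences against a library-to-library spread that could be technical alone. The gene for BAFF was not analysed here.

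Complex I takes electrons from NADH and complex II takes them from succinate in the tricarboxylic acid cycle; complex III passes them through cytochrome c to complex IV, which reduces oxygen. Complexes I, III and IV pump protons, and ATP synthase uses the resulting gradient to make ATP. In macrophages, activation by LPS is known to shift ATP production toward glycolysis, to break the flow through the tricarboxylic acid cycle, and to turn succinate oxidation and complex I toward production of reactive oxygen species. A few chain subunits are encoded by mitochondrial DNA and are not analysed here.

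Each library held 5121833 to 6020780 reads in listed genes. Of the 90 members, 72 had at least 100 reads in every library and 5 had under 10 reads in at least 1. All 9 macrophage markers searched were listed, with summed levels of 6967 to 7645 RPKM without LPS and 4729 to 5319 with it. Of 5 T or NK cell markers, 0 were listed. Skeletal muscle markers (19 of 20 listed) summed to 293 to 429 RPKM in the 3 WT libraries against 29.9 to 81.0 in the 6 knockout libraries, and neutrophil markers (9 of 10 listed) to 5802 RPKM in the unstimulated BAFF KO library against 3087 in WT and 2741 in APRIL KO. In bulk RNA, fewer cells of a type and less RNA per cell cannot be told apart. Because RPKM is a share of each column's reads, it shifts when other genes change: LPS moved the median of all 9934 tested genes by -0.44 on the log2(RPKM + 1) scale as deposited, by -0.02 after median ratio scaling and by -0.18 after quantile normalization, so each LPS change below is read against these shifts.

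The sequences just before the start of 4 genes are shown. They were picked from the members that stood at the end of their role in the LPS response and were called in all 3 scalings. Ndufb10 and Cox7a2l also met that description and are not shown. Cycs, the cytochrome c gene, rose, while Ndufs8, a core subunit of complex I, Ndufaf7, an assembly factor of complex I, and Sdhb, a subunit of complex II, fell. Windows of 250 bases before the RefSeq start were taken from RefSeq (GRCm38.p6) and are printed 5′ to 3′ on the strand of the gene. Capitals mark exact matches to the cAMP response element TGACGTCA or to GCATGCGC, a form of the site of nuclear respiratory factor 1.
Cycs (chr6:50566570-50566819, minus strand): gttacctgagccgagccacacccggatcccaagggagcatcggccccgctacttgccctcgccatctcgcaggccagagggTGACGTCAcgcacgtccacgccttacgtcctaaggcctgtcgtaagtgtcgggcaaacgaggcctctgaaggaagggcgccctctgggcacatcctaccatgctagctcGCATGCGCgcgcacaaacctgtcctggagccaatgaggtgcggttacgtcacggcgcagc
Sdhb (chr4:140961021-140961270, plus strand): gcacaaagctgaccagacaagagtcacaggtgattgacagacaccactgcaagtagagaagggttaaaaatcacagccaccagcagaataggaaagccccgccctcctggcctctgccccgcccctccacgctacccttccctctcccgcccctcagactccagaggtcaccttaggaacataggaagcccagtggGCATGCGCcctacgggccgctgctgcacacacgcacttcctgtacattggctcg
Ndufaf7 (chr17:78936885-78937134, plus strand): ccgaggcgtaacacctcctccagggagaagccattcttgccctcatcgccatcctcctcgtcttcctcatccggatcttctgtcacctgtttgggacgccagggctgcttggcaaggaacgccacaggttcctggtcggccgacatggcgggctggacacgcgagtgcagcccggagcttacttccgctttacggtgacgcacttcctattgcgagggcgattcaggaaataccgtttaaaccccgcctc
Ndufs8 (chr19:3912775-3913024, minus strand): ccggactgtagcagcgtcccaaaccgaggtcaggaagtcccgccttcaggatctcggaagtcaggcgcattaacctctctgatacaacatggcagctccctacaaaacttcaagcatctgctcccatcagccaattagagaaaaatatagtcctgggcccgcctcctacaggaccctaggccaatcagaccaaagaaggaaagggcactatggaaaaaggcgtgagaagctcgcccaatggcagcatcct
The Cycs window held 1 cAMP response element, 169 to 162 bases before the start, and 1 match to GCATGCGC, 60 to 53 bases before it. The Sdhb window held 1 match to GCATGCGC, 54 to 47 bases before the RefSeq start, and the windows of Ndufaf7 and Ndufs8 held neither. GENCODE M21 begins Sdhb further upstream, so the end of that window, with the match, lies inside the gene as given there. Of the 72 members with a window, 5 held TGACGTCA on either strand (6.94%, against 1.77% of 27025 genes), namely Cycs, Ndufa10, Ndufa11, Ndufb2 and Uqcrfs1. GCATGCGC was found in 10 of 72 (13.9%, against 2.56% of all), and CCGGAAG, a site of ETS factors, in 14 of 72 (19.4%, against 7.83%). The motifs were chosen with the values of the members known, they can overlap in a window, and a match is a description of letters only.

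LPS and unstimulated cells were compared first, with the response averaged over the 3 genotypes. With values as deposited, 70 of 90 members fell and 1 rose, against 62.1% of all tested genes lower and 18.1% higher (limma, Benjamini-Hochberg adjusted p below 0.05, as in every count below). The members' median change was -0.38, beside -0.44 for all genes. Without the unstimulated BAFF KO library (16) 43 members were called and the median was -0.24. The share of all genes in that setting is not given here, so this count shows only how the calls moved. After median ratio scaling 28 members rose and 9 fell (31.0% of all genes higher and 30.1% lower), with a median of 0.12 beside -0.02. After quantile normalization 4 rose and 67 fell (24.3% and 41.8%). Most calls therefore depended on the scaling, and 10 members had the same call in all 3: Cycs was higher (17.6% of all genes were called higher in all 3), and Ndufs8, Ndufb10, Ndufb11, Ndufaf4, Ndufaf6, Ndufaf7, Sdhb, Cox7a2l and Atp5s were lower (28.7%). Of these, Atp5s passed the filter on low values through its unstimulated groups alone, so its fall is tied to the filter. Neutrophil markers also moved with LPS: 8 of 8 tested fell as deposited (median -1.03) and 7 of 8 after median ratio scaling, with sums of 2741 to 5802 RPKM without LPS and 1341 to 2697 with it, and their part in the members' changes was not tested. Of 9 macrophage markers, 4 fell and 3 rose as deposited, and 2 fell and 5 rose after median ratio scaling. The part of macrophage content was not tested either.

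**Figure D1:**
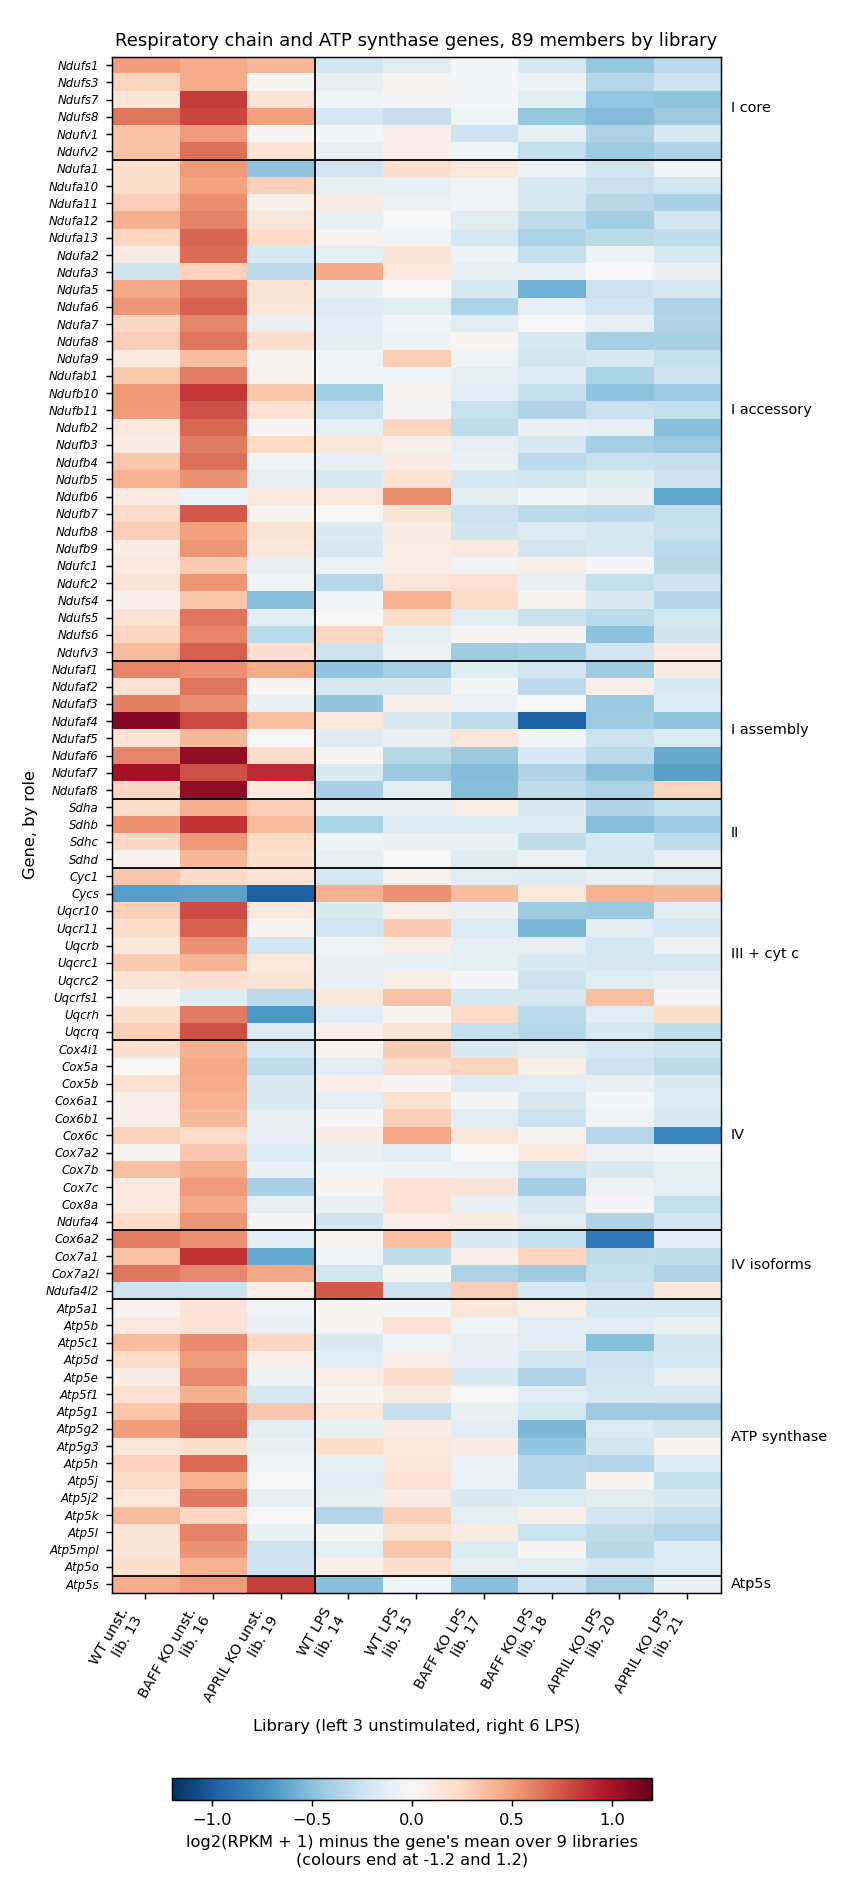
Each row is 1 of 89 of the 90 members, grouped by role, and each column 1 of the 9 libraries; colour gives log2(RPKM + 1) minus the gene's mean over the libraries. Most rows are highest in unstimulated BAFF KO (library 16), and Cycs is low in the 3 unstimulated libraries and high in the 6 LPS libraries.

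Summed over the members, levels were 6737, 8173 and 5633 RPKM in the unstimulated WT, BAFF KO and APRIL KO libraries and 5536 and 6353 (WT), 5683 and 5214 (BAFF KO) and 4977 and 4986 (APRIL KO) with LPS. The unstimulated BAFF KO library was highest and the unstimulated APRIL KO library lay within the range of the LPS libraries. Members took 0.939% ± 0.152 (SD, n = 3 libraries) of the reads in listed genes without LPS and 0.751% ± 0.0676 (SD, n = 6) with it. How reads that match several places in the genome were counted is not given in the sources used here, so values of members with near-identical copies or pseudogenes elsewhere, Cycs and the Atp5g genes among them, are uncertain to that extent. Exons of 32 members overlap an exon of another gene in GENCODE M21, on the opposite strand for 29 of them. Whether strand was used in counting is not clear from the labels. Among the 10 members named above, Ndufb11 alone has such an overlap (with Rbm10). Members named below that overlap a gene on the opposite strand include Cox6a2 (with Itgad), Ndufa3 (Tfpt), Ndufa2 (Tmco6), Ndufaf3 (Impdh2), Cox6c (Vps13b), Atp5a1 (Haus1) and Ndufa4l2 (Shmt2). The part of such reads in their values was not tested. In RPKM as deposited, 32 members had all 6 LPS libraries below all 3 unstimulated ones (49.0% of all genes did) and 1 had them above (14.2%). After median ratio scaling 3 members had them below and 8 above, against 2294 and 2432 of all 9934 tested genes. Statements below on whether the libraries of a gene overlap are in RPKM as deposited, and most such gaps between falling members' libraries closed after median ratio scaling.

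**Figure D2:**
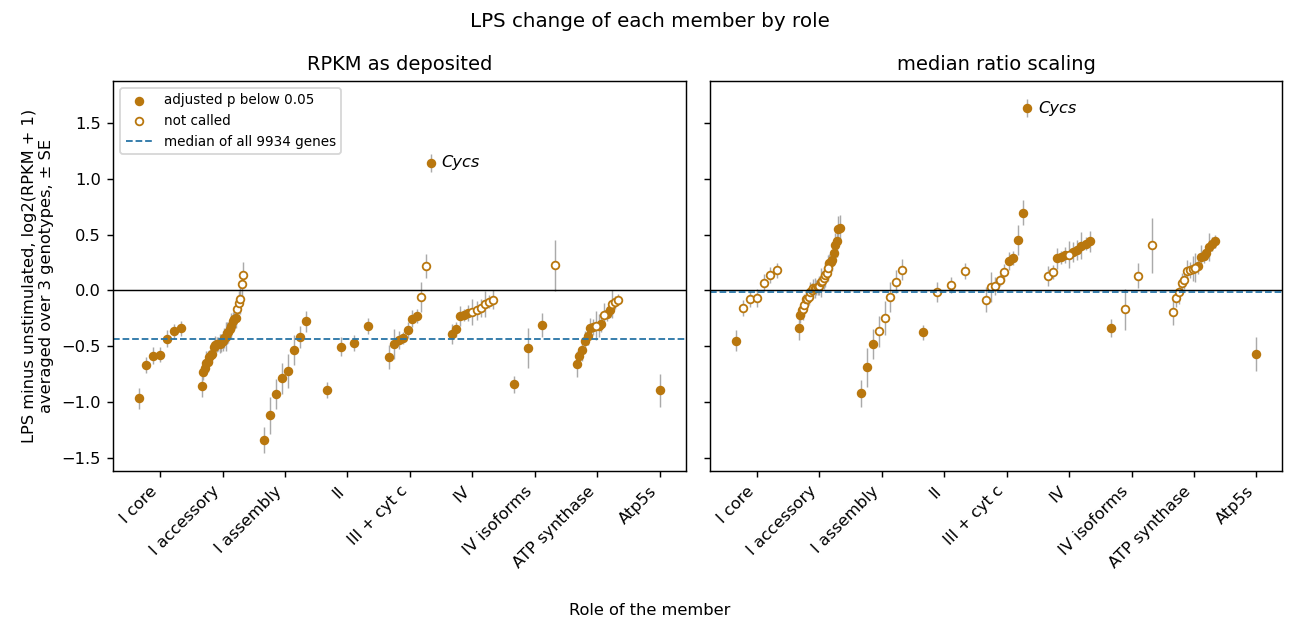
Points give each member's LPS change averaged over 3 genotypes on the log2(RPKM + 1) scale, with the standard error from limma, by role of the member; filled points passed an adjusted p of 0.05 and the dashed line is the median of all tested genes. By median, complex I assembly factors sit lowest and complex IV subunits highest among the roles with 7 or more members in both scalings drawn, an order that quantile normalization did not give (medians of -0.35 and -0.36); Cycs stands apart at 1.14 as deposited and 1.63 after median ratio scaling.

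Complex I is built from core subunits that carry the flavin, the iron-sulfur clusters and the quinone site, and from accessory subunits around them. All 7 core subunits listed fell as deposited (median -0.58), and after median ratio scaling 1 fell and none rose (median -0.07). All 7 fell after quantile normalization (median -0.46). Ndufs8, a core subunit that holds iron-sulfur clusters (ENSMUSG00000059734, mm10 chromosome 19, 3908863 to 3912774, minus strand), stood at 94.1, 105 and 84.7 RPKM in the unstimulated WT, BAFF KO and APRIL KO libraries and at 51.6 and 49.5 (WT), 58.2 and 43.6 (BAFF KO) and 41.5 and 44.2 (APRIL KO) with LPS. All 6 LPS libraries lay below all 3 unstimulated ones. The change was -0.97 (SE 0.09, adjusted p = 4.2e-05) by limma as deposited and -0.45 (adjusted p = 0.0042) after median ratio scaling.

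Of 29 accessory subunits, 24 fell as deposited and none rose (median -0.46), while 8 rose and 2 fell after median ratio scaling (median 0.04) and 2 rose and 21 fell after quantile normalization (median -0.37). Ndufb10, of the membrane arm, fell furthest, from 67.7, 85.2 and 59.2 RPKM in the unstimulated WT, BAFF KO and APRIL KO libraries to 34.7 and 48.0 (WT), 42.4 and 38.6 (BAFF KO) and 33.3 and 34.4 (APRIL KO) with LPS. As deposited, every LPS library lay below every unstimulated one, as in 49.0% of all genes. Its limma change was -0.85 (SE 0.10, adjusted p = 0.00013) as deposited and -0.34 (adjusted p = 0.022) after median ratio scaling. Ndufb11, another membrane arm subunit, which was named for its calls in all 3 scalings after the values were seen, changed by -0.73 (SE 0.07, adjusted p = 5.8e-05) by limma.

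In contrast, Ndufa3, a small accessory subunit, was at 3.67, 5.65 and 3.41 RPKM without LPS and at 6.52 and 5.01 (WT), 4.06 and 4.12 (BAFF KO) and 4.498 and 4.21 (APRIL KO) with it. Its libraries overlapped. The averaged limma change was 0.14 (SE 0.11, adjusted p = 0.28), and it became 0.56 (adjusted p = 0.0037) after median ratio scaling. With the higher index column of each library alone it was -0.19, and without library 13 it was -0.05, with no call. It was called higher after quantile normalization (0.57, adjusted p = 0.0021), with the lower index column alone (0.51) and without library 16 (0.40). Ndufa2, the accessory member with the highest level, was at 117, 174 and 93.8 RPKM without LPS and 101 and 122 (WT), 104 and 89.2 (BAFF KO) and 104 and 95.1 (APRIL KO) with it, with overlapping libraries. Its limma change of -0.28 (SE 0.08, adjusted p = 0.016) became 0.01 without library 16 (no call) and 0.24 (adjusted p = 0.046) after median ratio scaling.

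Assembly factors insert cofactors and join the modules of complex I without staying in the finished enzyme. All 8 with Nduf names fell as deposited, with the lowest median of any role of more than 1 gene (-0.75), and 3 fell with none rising after median ratio scaling (median -0.31). After quantile normalization 4 fell and none rose (median -0.35). Ndufaf7, an assembly factor with methyltransferase activity (ENSMUSG00000024082, mm10 chromosome 17, 78937136 to 78948052, plus strand), stood at 7.12, 5.94 and 6.54 RPKM in the unstimulated WT, BAFF KO and APRIL KO libraries. With LPS it was at 2.58 and 1.97 (WT), 1.81 and 2.13 (BAFF KO) and 1.83 and 1.58 (APRIL KO). The libraries did not overlap, and every unstimulated value was more than 2 times every LPS value. The limma change was -1.34 (SE 0.12, adjusted p = 2.5e-05) as deposited and -0.92 (adjusted p = 0.0003) after median ratio scaling, on 22 to 99 reads per library.

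Ndufaf4, an early assembly factor of complex I, was at 9.25, 7.33 and 5.21 RPKM without LPS and at 4.27 and 3.28 (WT), 2.91 and 1.45 (BAFF KO) and 2.56 and 2.45 (APRIL KO) with it. As deposited, every LPS value lay below every unstimulated one, with the lowest in 1 BAFF KO library. It changed by -1.12 (SE 0.17, adjusted p = 0.00042) by limma and by -0.69 (adjusted p = 0.0089) after median ratio scaling. Ndufaf6, an assembly factor for the matrix arm, was at 9.15, 13.1 and 6.86 RPKM without LPS and 5.92 and 4.37 (WT), 3.96 and 4.95 (BAFF KO) and 4.42 and 3.44 (APRIL KO) with it, again without overlap as deposited. Its limma change was -0.93 (SE 0.13, adjusted p = 0.00034). The other end of the role was Ndufaf5, which modifies the core subunit NDUFS7, at -0.28 (SE 0.09, adjusted p = 0.025) by limma as deposited and 0.18 (adjusted p = 0.13) after median ratio scaling. Its deposited call was lost without library 13, 16, 18 or 20 (adjusted p = 0.055 to 0.085). Ndufaf2, the assembly factor with the highest level, gave -0.42 (SE 0.10, adjusted p = 0.0044) as deposited, and after median ratio scaling 0.08 (adjusted p = 0.54) with no call. Without library 16 it was -0.22, with no call.

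**Figure D3:**
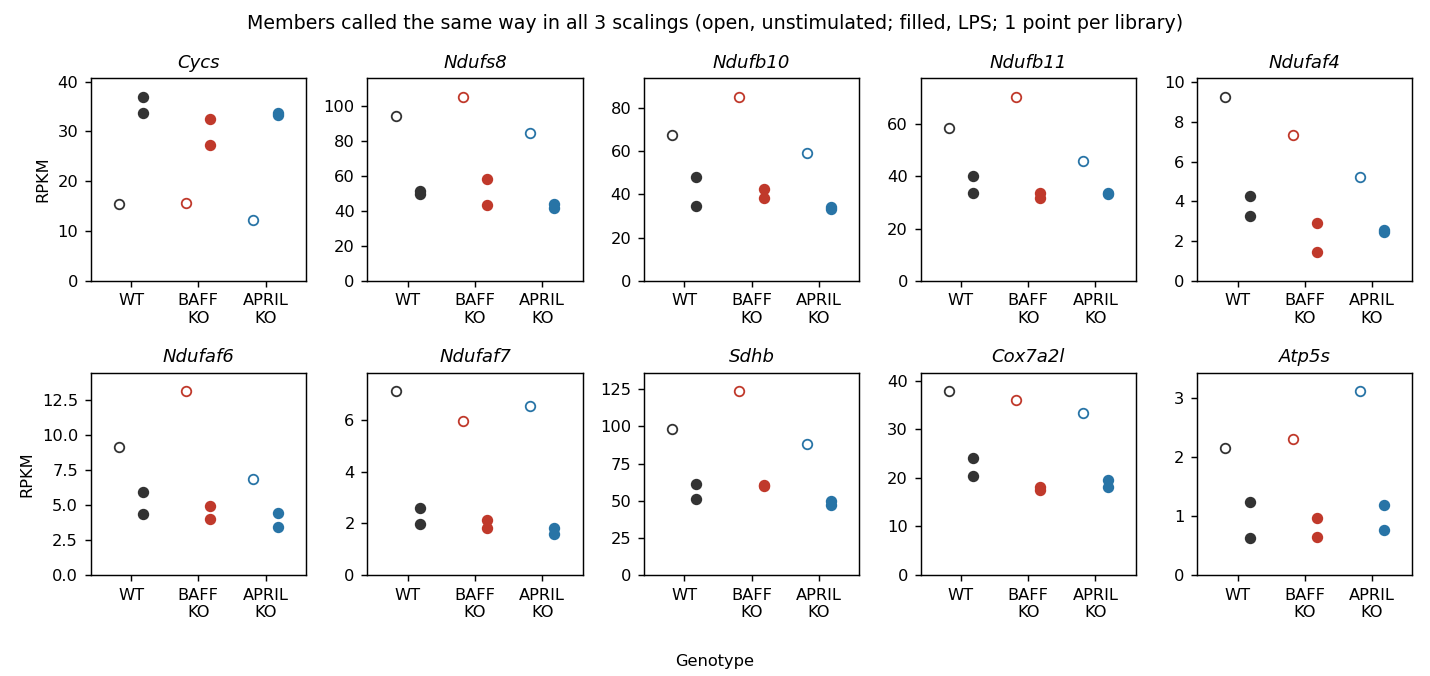
RPKM of the 10 members with the same LPS call in all 3 scalings, by genotype; each point is 1 library, open without LPS and filled with it, and every axis starts at 0. Cycs runs opposite to the other 9, and in RPKM as deposited the LPS and unstimulated libraries of each of the 10 genes do not overlap. After median ratio scaling only 3 of the 90 members had all LPS libraries below all unstimulated ones. Atp5s passed the filter on low values through its unstimulated groups alone.

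Complex II is the 1 chain enzyme that also belongs to the tricarboxylic acid cycle. Its 4 genes fell together as deposited (median -0.49), and only Sdhb kept a call after median ratio scaling. After quantile normalization 2 fell (median -0.39). Sdhb, the iron-sulfur subunit (ENSMUSG00000009863, mm10 chromosome 4, 140961203 to 140979193, plus strand), was at 98.6, 124 and 87.9 RPKM in the unstimulated WT, BAFF KO and APRIL KO libraries and at 51.5 and 61.0 (WT), 60.8 and 60.03 (BAFF KO) and 46.9 and 49.6 (APRIL KO) with LPS. As deposited, the highest LPS value was below the lowest unstimulated one. The limma change was -0.89 (SE 0.07, adjusted p = 1.5e-05) as deposited and -0.38 (adjusted p = 0.0022) after median ratio scaling. Sdha, the flavoprotein that oxidises succinate, was at 84.3, 98.0 and 88.9 RPKM without LPS and 68.0 and 67.4 (WT), 76.3 and 64.0 (BAFF KO) and 56.1 and 59.4 (APRIL KO) with it. Its libraries did not overlap either, and the limma change of -0.47 (SE 0.07, adjusted p = 0.00046) turned to 0.05 (adjusted p = 0.6) after median ratio scaling. The membrane anchors Sdhc and Sdhd fell as deposited, with limma changes of -0.50 (SE 0.09, adjusted p = 0.00088) and -0.32 (SE 0.07, adjusted p = 0.0043), and were at -0.02 and 0.18 after median ratio scaling, with no call. Without library 16 Sdhd was at -0.22 and not called.

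In the group of complex III and cytochrome c, 7 of 10 genes fell and 1 rose as deposited (median -0.30), 5 rose and none fell after median ratio scaling (median 0.21), and 2 rose and 6 fell after quantile normalization (median -0.36). The gene that rose in every setting run was Cycs, which encodes cytochrome c, the small carrier between complexes III and IV that also triggers caspase activation when it leaves mitochondria (ENSMUSG00000063694, mm10 chromosome 6, 50562563 to 50566538, minus strand). Cycs stood at 15.3, 15.6 and 12.2 RPKM in the unstimulated WT, BAFF KO and APRIL KO libraries and at 33.7 and 36.9 (WT), 32.4 and 27.2 (BAFF KO) and 33.7 and 33.2 (APRIL KO) with LPS. Each LPS value lay above all unstimulated values, in all 3 genotypes. The limma change was 1.14 (SE 0.08, adjusted p = 7.5e-06) as deposited and 1.63 (adjusted p = 9.9e-07) after median ratio scaling, on 227 to 654 reads per library.

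Cyc1 encodes cytochrome c1, the heme subunit of complex III that hands electrons to cytochrome c. It was at 79.1, 74.5 and 70.3 RPKM without LPS and at 54.5 and 65.4 (WT), 57.2 and 56.7 (BAFF KO) and 59.1 and 56.4 (APRIL KO) with it, without overlap. Its limma change was -0.35 (SE 0.07, adjusted p = 0.0023) as deposited and 0.16 (adjusted p = 0.097) after median ratio scaling. Within a library the ratio of Cycs to Cyc1 does not depend on scaling between libraries. That ratio was 0.194, 0.210 and 0.173 in the unstimulated WT, BAFF KO and APRIL KO libraries and 0.480 to 0.619 in the 6 LPS libraries, so the 2 sets did not overlap. Uqcrc1, a core protein of complex III, had the highest level of the group at 165, 176 and 145 RPKM without LPS and 126 and 126 (WT), 122 and 116 (BAFF KO) and 115 and 116 (APRIL KO) with it. Its limma change of -0.43 (SE 0.05, adjusted p = 0.00016) became 0.09 (adjusted p = 0.18) after median ratio scaling. Uqcr10, a small subunit, went lowest at -0.60 (SE 0.11, adjusted p = 0.0013) by limma, and at -0.08 (adjusted p = 0.54) after that scaling.

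The direction of the complex IV subunits turned with the scaling. As deposited 5 of 11 fell and none rose (median -0.20), after median ratio scaling 8 rose and none fell (median 0.32), and after quantile normalization all 11 fell (median -0.36). Cox5a, a matrix-side subunit and the member with the highest level of all 90, was at 398, 547 and 323 RPKM in the unstimulated WT, BAFF KO and APRIL KO libraries and at 363 and 457 (WT), 478 and 416 (BAFF KO) and 332 and 320.0 (APRIL KO) with LPS. LPS and unstimulated libraries overlapped, and in both conditions the mean was highest in BAFF KO and lowest in APRIL KO. The averaged change was -0.08 (SE 0.09, adjusted p = 0.41) by limma as deposited, 0.02 without library 16 (no call), -0.27 after quantile normalization (called) and 0.44 (adjusted p = 0.0041) after median ratio scaling.

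Ndufa4 carries a complex I name but encodes a subunit of complex IV. Its mouse relative AA467197, known from human cells as a protein that can take the place of NDUFA4 in inflammation, does not carry a member's name and was set beside it. Ndufa4 was at 219, 268 and 188 RPKM without LPS and at 158 and 196 (WT), 199 and 169 (BAFF KO) and 144 and 158 (APRIL KO) with it, and its change of -0.39 (SE 0.09, adjusted p = 0.0043) by limma became 0.13 (adjusted p = 0.25) after median ratio scaling. AA467197 (mm10 chromosome 2, 122636986 to 122641191, plus strand) was at 7.88, 11.3 and 7.09 RPKM without LPS and at 399.9 and 457 (WT), 231 and 167 (BAFF KO) and 394 and 353 (APRIL KO) with it. Every LPS value was more than 10 times every unstimulated one, and the averaged limma change was 5.04 (SE 0.11, adjusted p = 1e-08) as deposited and 5.52 (adjusted p = 5.4e-09) after median ratio scaling.

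The ratio of AA467197 to Ndufa4 was 0.0360, 0.0421 and 0.0378 in the unstimulated WT, BAFF KO and APRIL KO libraries. With LPS it was 2.54 and 2.33 in WT, 1.16 and 0.987 in BAFF KO and 2.73 and 2.23 in APRIL KO. The BAFF KO values did not overlap those of the other genotypes. Under LPS, AA467197 was lower in BAFF KO than in WT by limma, at -1.12 (SE 0.15, adjusted p = 0.0063), and lower than in APRIL KO, at -0.92 (SE 0.15, adjusted p = 0.015). APRIL KO against WT gave -0.20 (SE 0.15, adjusted p = 0.57), with no call. The difference in LPS response between BAFF KO and WT was -1.59 (SE 0.27, adjusted p = 0.061), which missed the threshold. The hairpin of miR-147 (GENCODE M21, chr2:122640803-122640881, plus strand) lies inside the AA467197 gene; reads of a gene and of the hairpin within it cannot be told apart.

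**Figure D4:**
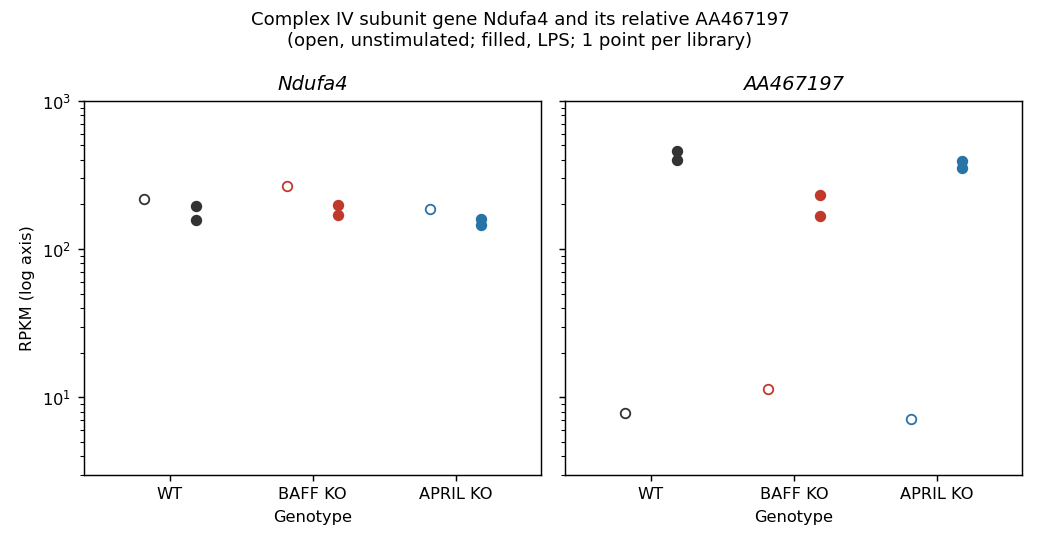
RPKM on a log axis of Ndufa4 and AA467197 by genotype, 1 point per library, open without LPS and filled with it. Ndufa4 stays between 144 and 268 RPKM, while AA467197 goes from 7.09 to 11.3 without LPS to 167 to 457 with it, lowest in BAFF KO.

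Isoforms known from heart and skeletal muscle were low. Cox6a2 was at 3.37, 3.19 and 1.62 RPKM in the unstimulated WT, BAFF KO and APRIL KO libraries and at 1.95 and 2.68 (WT), 1.54 and 1.35 (BAFF KO) and 0.579 and 1.62 (APRIL KO) with LPS, beside 75.8 to 116 RPKM of its general isoform Cox6a1. Cox7a1 was at 7.61, 11.3 and 3.41 without LPS and 5.56 and 4.48 (WT), 6.03 and 7.05 (BAFF KO) and 4.49 and 4.43 (APRIL KO) with it, and its ratio to the general isoform Cox7a2 was 0.0282 to 0.0664. These values rest on at most 20 reads per library, and the LPS and unstimulated libraries of both genes overlapped. Their limma changes were -0.52 (SE 0.18, adjusted p = 0.026) and -0.31 (SE 0.11, adjusted p = 0.03) as deposited; that of Cox7a1 became 0.13 (adjusted p = 0.32) after median ratio scaling, and 3 and 6 of 9 libraries left out in turn ended the calls of Cox6a2 and Cox7a1. Median ratio scaling ended both calls. The summed muscle markers given above were higher in WT than in either knockout, and their part in these 2 genes was not tested.

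Cox7a2l, which helps to join complexes III and IV into supercomplexes, was at 37.9, 36.0 and 33.3 RPKM without LPS and at 20.3 and 24.1 (WT), 18.04 and 17.4 (BAFF KO) and 19.5 and 18.1 (APRIL KO) with it. As deposited, all LPS libraries lay below all unstimulated ones. Its limma change was -0.84 (SE 0.08, adjusted p = 3.4e-05) as deposited and -0.34 (adjusted p = 0.0077) after median ratio scaling, and its ratio to Cox7a2 was 0.211 to 0.275 without LPS and 0.118 to 0.194 with it. Ndufa4l2, a relative of Ndufa4 known for induction in hypoxia, had 0 to 7 reads per library and no call (0.22, SE 0.23, adjusted p = 0.4).

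ATP synthase consists of a catalytic head, stalks and a membrane ring. Of its 16 genes 11 fell and none rose as deposited (median -0.32), 7 rose with none falling after median ratio scaling (median 0.20), and 14 fell with none rising after quantile normalization (median -0.36). Atp5a1, a subunit of the catalytic head, was at 209.5, 226 and 196 RPKM in the unstimulated WT, BAFF KO and APRIL KO libraries and at 205 and 201 (WT), 224 and 212 (BAFF KO) and 177 and 177 (APRIL KO) with LPS. The libraries overlapped. Its limma change was -0.08 (SE 0.05, adjusted p = 0.18) as deposited and 0.44 (adjusted p = 0.0003) after median ratio scaling, while after quantile normalization it fell (-0.35, adjusted p = 0.00033). Atp5mpl, a small membrane subunit with the highest level of the group, was at 238, 310.3 and 179 RPKM without LPS and at 197 and 269 (WT), 190.1 and 215 (BAFF KO) and 169 and 191 (APRIL KO) with it, with overlapping libraries. Its limma value was -0.22 (SE 0.10, adjusted p = 0.087) as deposited, with no call, and 0.30 (adjusted p = 0.035) after median ratio scaling. It was called lower after quantile normalization (-0.49, adjusted p = 0.0028), with the higher index column alone, with all 18 columns, and without library 15 or 19 (-0.29 and -0.33).

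Atp5g1, Atp5g2 and Atp5g3 encode the same mature ring subunit from separate genes. Atp5g1 was at 8.86, 11.3 and 8.76 RPKM without LPS and at 7.52 and 5.44 (WT), 6.35 and 5.77 (BAFF KO) and 4.79 and 4.82 (APRIL KO) with it. Atp5g2 was at 109, 123 and 69.9 RPKM without LPS and at 71.8 and 81.3 (WT), 69.3 and 51.8 (BAFF KO) and 68.0 and 65.4 (APRIL KO) with it. Atp5g3 was at 69.3, 72.3 and 59.2 RPKM without LPS and at 72.9 and 69.0 (WT), 67.4 and 45.01 (BAFF KO) and 53.9 and 63.5 (APRIL KO) with it. All LPS values of Atp5g1 lay below the unstimulated ones, and the libraries of the other two overlapped. Atp5g1, at the lowest level of the 3, fell by limma (-0.66, SE 0.12, adjusted p = 0.0011), as did Atp5g2 (-0.53, SE 0.10, adjusted p = 0.0013), while Atp5g3 was not called (-0.12, SE 0.12, adjusted p = 0.38). After median ratio scaling the values were -0.20 (adjusted p = 0.18), -0.02 (adjusted p = 0.9) and 0.39 (adjusted p = 0.027). Atp5s, once counted as coupling factor B of the enzyme and now tied to assembly, was at 2.16, 2.30 and 3.12 RPKM without LPS and at 0.633 and 1.23 (WT), 0.637 and 0.962 (BAFF KO) and 0.756 and 1.19 (APRIL KO) with it, on as few as 3 reads in a library. Its libraries did not overlap, and its limma change was -0.89 (SE 0.15, adjusted p = 0.00074) as deposited and -0.57 (adjusted p = 0.013) after median ratio scaling. Only its unstimulated groups reached the filter on low values. Its fall and the lack of overlap are therefore tied to the filter and are not read as a result.

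Lists of other mitochondrial genes were read beside the members; they were drawn up with earlier results of these data known. As deposited, 17 of 18 genes of the tricarboxylic acid cycle and pyruvate dehydrogenase fell (after median ratio scaling 4 rose and 5 fell), 54 of 73 mitochondrial ribosomal protein genes fell and 3 rose (14 rose and 16 fell), and 19 of 22 import, chaperone and carrier genes fell and 1 rose (5 and 6). Genes of complex IV assembly had 5 rises and 10 falls of 19 (8 and 4). The copper chaperone genes Sco1 and Sco2, which serve the same copper site of complex IV, moved in opposite directions. Sco1 was at 2.29, 2.04 and 2.19 RPKM without LPS and 4.38 and 4.56 (WT), 6.01 and 6.504 (BAFF KO) and 4.31 and 5.48 (APRIL KO) with it (0.96, SE 0.11, adjusted p = 0.00012 by limma, 1.33 after median ratio scaling). Sco2 was at 4.21, 5.63 and 3.28 RPKM without LPS and 0.892 and 1.16 (WT), 0.761 and 1.22 (BAFF KO) and 1.18 and 1.29 (APRIL KO) with it (-1.35, SE 0.12, adjusted p = 2.9e-05 by limma, -0.98 after that scaling). LPS libraries lay above all unstimulated ones for Sco1 and below them for Sco2.

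Among assembly factors of the other complexes, 13 of 17 fell and none rose (2 rose and 5 fell after median ratio scaling). Ecsit, an assembly factor of complex I that is also known as an adaptor in Toll-like receptor signalling, changed by -1.49 (SE 0.14, adjusted p = 3.4e-05) by limma, and Ttc19, of complex III, was not called (0.06, SE 0.11, adjusted p = 0.61). Regulators of mitochondrial gene expression had 1 rise and 6 falls of 12 (5 and 3), with Gabpb1, a subunit of nuclear respiratory factor 2, at 0.94 (SE 0.11, adjusted p = 0.00013) and Polrmt, the mitochondrial RNA polymerase, at -1.48 (SE 0.12, adjusted p = 1.8e-05). The lowest and highest limma changes among import, chaperone and carrier genes were those of the protease gene Clpp (-1.63, SE 0.14, adjusted p = 2e-05) and the import receptor gene Tomm70a (0.29, SE 0.07, adjusted p = 0.0074). Among ribosomal protein genes they were those of Mrpl2 (-1.52, SE 0.07, adjusted p = 5.6e-07) and Mrpl52 (0.67, SE 0.10, adjusted p = 0.00056). In the cycle they were those of Idh2 (-1.07, SE 0.09, adjusted p = 2.3e-05) and Dld (0.06, SE 0.05, adjusted p = 0.33). Each gene named from these lists kept its direction after median ratio scaling. Ttc19 and Dld, not called as deposited, were called higher after it (0.41, adjusted p = 0.015, and 0.58, adjusted p = 5.4e-05), and turned slightly negative with no call in other settings, while Tomm70a lost its call without library 16 (0.06).

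The next question was whether the genotypes responded alike. As deposited, LPS lowered 26 members and raised 2 in WT (46.7% of all genes lower, 13.7% higher), lowered 71 and raised 1 in BAFF KO (43.8% and 16.0%) and lowered 28 and raised 3 in APRIL KO (47.8% and 14.4%). Cycs rose in each genotype, at 1.15, 0.89 and 1.39 in WT, BAFF KO and APRIL KO; Ndufa3 also rose in WT, and so did Uqcrfs1, the Rieske iron-sulfur protein gene, and Uqcrh, a hinge subunit gene, in APRIL KO. The members' median change was -0.26 in WT, -0.67 in BAFF KO and -0.25 in APRIL KO, beside -0.44, -0.40 and -0.46 for all genes. Leaving out WT library 14 lowered the number called in WT to 16, with no share of all genes given for that setting. After median ratio scaling 25 members rose and 1 fell in WT (23.0% and 17% of all genes), 2 rose and 19 fell in BAFF KO (23.4% and 17.3%) and 27 rose and 1 fell in APRIL KO (23.6% and 18.3%). Ndufaf7 was the member that fell in WT and in APRIL KO after that scaling, and it fell in BAFF KO too.

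The difference in LPS response between BAFF KO and WT was negative for 84 of 90 members, with a median of -0.38 beside 0.08 for all genes. None of them passed in limma (0.221% of all genes were called in each direction); 31 were lower and 0 higher at an unadjusted p under 0.05, against 786 and 1355 of all genes. After quantile normalization Ndufb7 alone was called. For APRIL KO against WT the median difference in response was 0.02, with 0 calls in limma among members and 0.0% among all genes, and 2 members in each direction at an unadjusted p under 0.05, against 167 higher and 170 lower of all genes. The response of each genotype is measured against its own unstimulated library, the same libraries as in the unstimulated comparisons below. Each of these differences rests on 1 unstimulated library per genotype, whose own spread is unknown and was taken to equal that of the LPS groups.

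**Figure D5:**
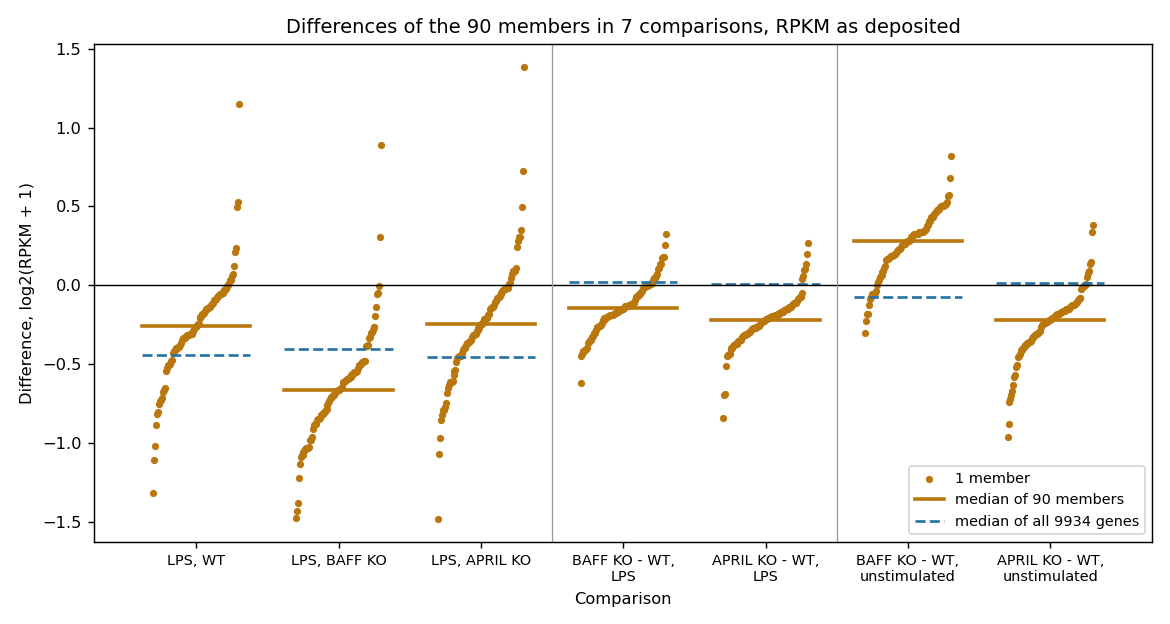
Each point is 1 of the 90 members and gives its difference on the log2(RPKM + 1) scale in 7 comparisons, sorted within each; the solid line is the members' median and the dashed line the median of all tested genes. The members' median lies below that of all genes for LPS in BAFF KO (-0.67 against -0.40) and above it for LPS in WT and APRIL KO, and in unstimulated cells it lies above for BAFF KO and below for APRIL KO.

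Without LPS, each genotype had 1 library, so these differences have no replicate check and no p-value. The unstimulated BAFF KO library was higher than WT for 77 of 90 members, with a median difference of 0.28 beside -0.07 for all genes. Both BAFF KO columns lay above both WT columns for 65 members (22.8% of all genes) and below for 1 (38.2%). With columns apart and a fold of at least 1.5 in RPKM + 1 were Ndufaf8, a partner of the assembly factor NDUFAF5, at 20.0 RPKM against 10.9, and the core subunit gene Ndufs7 at 42.5 against 26.2 (2 members higher and 0 lower, against 2.92% and 6.79% of all genes). By role the median difference was 0.33 for complex I accessory subunits, 0.30 for complex II, 0.29 for complex IV and 0.23 for ATP synthase. Neutrophil markers summed to 5802 RPKM in this library and 3087 in WT, and their part in the difference was not tested.

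The unstimulated APRIL KO library was lower than WT for 81 of 90 members, with a median of -0.22 beside 0.02 for all genes. Its columns lay below both WT columns for 58 members (24.1% of all genes) and above for 2 (29.0%). With columns apart and a fold of at least 1.5 in RPKM + 1 were 5 members, all lower (3.3% of all genes lower and 1.75% higher): Uqcrh at 30.2 RPKM against 56.4, the accessory subunit gene Ndufa1 at 72.0 against 115, Atp5g2 at 69.9 against 109, the assembly factor gene Ndufaf3 at 9.60 against 16.1 and Cox7a1 at 3.41 against 7.61. Ndufaf4 (5.21 against 9.25 RPKM) and Cox6a2 (1.62 against 3.37) were past that fold with overlapping columns. Both comparisons share the WT library. Muscle markers summed to 29.9 RPKM in BAFF KO and 44.2 in APRIL KO against 293 in WT. Erythroid markers summed to 437.5 RPKM in BAFF KO and 499.6 in APRIL KO against 345.8 in WT. The part of these markers in either difference was not tested.

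Under LPS, with 2 libraries per genotype, few members passed the adjusted threshold, and so few libraries limit what can be called. BAFF KO was lower than WT for 71 of 90 members, with a median of -0.15 beside 0.02 for all genes, and 2 passed in limma, both lower (4.35% of all genes lower and 3.99% higher). The median was -0.24 without library 14 and -0.07 without library 15 or 18. Atp5e, the epsilon subunit gene of ATP synthase, was at 122 and 133 RPKM in the WT and 102 and 89.1 in the BAFF KO libraries. Ndufb7, an accessory subunit gene of complex I, was at 63.3 and 71.0 RPKM in WT and 53.0 and 50.5 in BAFF KO. The BAFF KO values lay below the WT values in both genes. The limma differences were -0.41 (SE 0.10, adjusted p = 0.044) for Atp5e and -0.37 (SE 0.09, adjusted p = 0.047) for Ndufb7. Leaving out any 1 of the 6 LPS libraries ended both calls, with adjusted p of 0.069 to 0.22. At an unadjusted p under 0.05, 16 members were lower and 0 higher, against 1209 and 1299 of all genes.

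APRIL KO was lower than WT under LPS for 83 of 90 members, with a median of -0.22 beside 0.01 for all genes and 0 members called in limma (0.201% of all genes lower, 0.0101% higher); 30 were lower and 0 higher at an unadjusted p under 0.05, against 758 and 781 of all genes. The median was -0.14 without library 15. The lowest was Cox6c, a small complex IV subunit gene named after its values were seen, at 83.0 and 108 RPKM in WT and 61.3 and 44.8 in APRIL KO (-0.84, SE 0.17, adjusted p = 0.13 by limma). Both knockout comparisons use the same WT libraries. BAFF KO against APRIL KO under LPS also gave 0 member calls in limma (2.48% of all genes higher, 3.06% lower) and a median of 0.08 beside 0.02, with 14 members higher and 2 lower at an unadjusted p under 0.05, against 995 and 934 of all genes. That median was 0.03 without library 17 and 0.14 without library 18. In the LPS libraries, 13 of 15 tested muscle markers were lower in BAFF KO than in WT and 7 of 15 in APRIL KO, and 5 of 8 neutrophil markers were higher in BAFF KO. Against APRIL KO, 6 of 8 neutrophil markers were higher and 2 of 4 B cell markers lower in BAFF KO. Against WT, 1 of 4 B cell markers was lower in BAFF KO. Of 9 macrophage markers, 1 was higher and 2 lower in BAFF KO than in WT. Against APRIL KO, 1 was higher and 3 lower in BAFF KO, and 0 were called between APRIL KO and WT. Fibroblast markers summed to 52.4 and 223 RPKM in the WT, 8.57 and 41.6 in the BAFF KO and 13.97 and 432 in the APRIL KO libraries. Erythroid markers (3 of 5 listed) summed to 327.4 and 327.7 RPKM in the WT, 327.5 and 405 in the BAFF KO and 429 and 663 in the APRIL KO libraries. Of these 3, 0 were called between genotypes under LPS. The part of these cell types in these differences was not tested.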

How the data were processed

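RNA from 9 libraries of macrophages was sequenced, and each library was deposited as 2 columns under different index numbers. The values are RPKM, computed and deposited by the authors; STAR and the build mm10 are named in the submitters' processing notes. Which counting tool, annotation and filter were used is not given in the sources used here. In the labels, the protocols name a strand-specific kit beside a TruSeq kit, so strand in counting is unclear. Of protein-coding genes, 55.79% with 3 or more exons were in the table, 10.56% with 2 exons and 0.22% with 1 exon.

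Whole reads could be recovered from the deposited RPKM for all 11164 genes within 0.01 reads, and gave 1649338 to 4078562 reads per column. Both columns of a library were averaged. Symbols came from GENCODE M21 (11084 IDs matched, 80 did not), and 0 columns were left unmapped. Genes whose mean reached 1 RPKM in any of the 6 groups were kept, and log2(RPKM + 1) was fitted with limma 3.58.1 (R 4.3.3; trend, 6 group means, 3 residual degrees of freedom, Benjamini-Hochberg threshold 0.05). Fold changes on this scale understate the change of low genes. The fit covered 9 comparisons; unstimulated genotypes, with 1 library each, were compared by size only (both columns beyond both WT columns and at least 1.5-fold). For some of the comparisons the fit was also run on simulated data, with the same noise setting in every library and as many rises as falls. No shift of all genes was built in, so that run does not check the LPS calls against the scaling. Tables and figures used Python 3.11.15, pandas 2.3.3 and matplotlib 3.10.9.

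Members and lists were chosen with earlier results of these data known. Named by rule were, per role, the member with the highest level and those with the largest rise and fall with LPS; members called between genotypes; members that went against most calls after median ratio scaling (at most 6); tissue isoforms; fixed names (Ndufa4 with AA467197, Sdha to Sdhd, Cyc1, Cycs); and the largest rise and fall of each other list. The values of 1 member that the rule names are not reported here. Each result was recomputed after median ratio scaling and after quantile normalization, without the filter, with 0.1 as the pseudocount, from either index column alone or all 18 columns unaveraged, with replicate numbers as a block, and leaving out single libraries. Deviations of same-numbered LPS libraries from their group means had correlations of -0.18 (WT with BAFF KO), -0.10 (WT with APRIL KO) and 0.12 (BAFF KO with APRIL KO) over 9934 genes. With 2 libraries per group this check cannot exclude that libraries were paired or shared a batch.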

Additional observations from a re-analysis of the deposited data

How the results depend on the processing

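With a pseudocount of 0.1, all 45 values of named genes kept their direction and call. Members past the fold in unstimulated cells became 3 higher in BAFF KO and 7 lower in APRIL KO. Of all 9934 tested genes, 450 were then higher and 1142 lower in BAFF KO, and 449 and 519 in APRIL KO. Median ratio scaling moved the counts of called members to 37 for LPS averaged over genotypes and to 21 for LPS in BAFF KO, and reversed the members' median to 0.12 averaged, 0.28 in WT and 0.27 in APRIL KO. It also turned the averaged LPS change of named members, 14 of which are given here: Atp5a1 to 0.44, Atp5e to 0.22, Atp5mpl to 0.30, Cox5a to 0.44, Cox7a1 to 0.13, Cyc1 to 0.16, Ndufa2 to 0.24, Ndufa4 to 0.13, Ndufaf2 to 0.076, Ndufaf5 to 0.18, Ndufb7 to 0.0047, Sdha to 0.0467, Sdhd to 0.18 and Uqcrc1 to 0.0932. Quantile normalization turned Cox7a1 to 0.12, Ndufaf5 to 0.13 and Dld to -0.0718, and called 1 member for BAFF KO against WT under LPS, 3 for BAFF KO against APRIL KO and 1 for the difference in response of BAFF KO. With the 18 columns as separate samples, which counts each library more than once, the calls were 17, 25 and 13 for BAFF KO against WT, APRIL KO against WT and BAFF KO against APRIL KO under LPS, and 28 for the difference in response of BAFF KO. The lower index column alone called 14 members for LPS in WT, 0 for BAFF KO against WT and 1 for BAFF KO against APRIL KO, and gave Cox7a1 0.16. The higher index column alone called 0 for BAFF KO against WT and gave Ndufa3 -0.19 and Ttc19 -0.0741. Without the filter 0 members were called for BAFF KO against WT under LPS. Shares of all genes are not given here for quantile normalization between genotypes, for single or unaveraged columns or without the filter. The member counts in those settings show only how the calls moved.

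With the replicate number as a block, 0 members were called for BAFF KO against WT under LPS, and Ttc19 became -0.0139. The libraries are known to share only a number. The LPS counts were 66 averaged, 21 in WT, 72 in BAFF KO and 25 in APRIL KO. Leaving out 1 library gave 43 to 76 called members averaged over genotypes (fewest without library 16), 16 to 28 in WT (fewest without library 14), 62 to 73 in BAFF KO, 22 to 31 in APRIL KO and 0 to 0 for BAFF KO against WT under LPS. The averaged LPS change ranged from -0.14 to 0.0228 for Cox5a, from -0.46 to 0.0073 for Ndufa2 and from -0.0646 to 0.17 for Dld, each turned without library 16; from -0.053 to 0.40 for Ndufa3, turned without library 13; and from -0.0123 to 0.20 for Ttc19, turned without library 13 or 19. Shares of all genes are not given here with the block or with a library left out. In unstimulated cells 5 members, all higher, passed the fold in BAFF KO after median ratio scaling, against 336 higher and 427 lower of all 9934 tested genes. At a fold of 2 in RPKM + 1, 0 members passed in either knockout. Of all genes, 48 were then higher and 132 lower in BAFF KO, and 15 and 115 in APRIL KO. The cause of these changes was not tested.

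With 1 unstimulated library per genotype and 3 residual degrees of freedom, an LPS change within 1 genotype rests on the spread pooled over the LPS libraries. The genotype of an unstimulated library cannot be told apart from that library. Members with under 10 reads in a library (Cox6a2, Ndufa4l2, Atp5s, Cox7a1 and Ndufaf4) have the least certain values.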

Other observations

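Levels in log2(RPKM + 1) were also read relative to the members' own median in each library. A scaling factor between libraries nearly cancels in this measure for high genes. It cancels less for low genes such as Ndufa3 and Ndufaf7, because of the added 1. By this measure 16 members had all 6 LPS libraries above all 3 unstimulated ones and 6 had them below. The same count over all genes was not made, so whether these counts are unusual is unknown. Among those members Cycs was highest at 1.64, followed by Uqcrfs1, the Rieske protein gene of complex III, at 0.72. The complex I accessory subunit genes Ndufa3 at 0.64 and Ndufs4 at 0.56 came next. Ndufaf7 was lowest at -0.84, followed by Ndufs8 at -0.46, Ndufaf6 at -0.43, Sdhb at -0.39, Ndufb10 at -0.35 and Ndufb11 at -0.23. The members' summed RPKM with LPS was 0.872 of the unstimulated mean for complex IV subunits, 0.819 for ATP synthase, 0.660 for complex I core subunits, 0.640 for complex II and 0.595 for complex I assembly factors. These ratios are in RPKM as deposited and carry the shift of all genes.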
